A study of Drosophila melanogaster with 8 samples.

Results

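The pericentric heterochromatin ends are the centromere-side stretches of the assembled Drosophila melanogaster chromosome arms. A region enriched for linker histone H1 was counted in an end when its midpoint lay in 2L 22000001-23011544, 3L 22900001-24543557, 3R 1-400000 or X 21900001-22422827, in the coordinates of FlyBase release 5. These 4 stretches hold 552 of the 16190 regions in the authors' combined list, with 151 on 2L, 277 on 3L, 38 on 3R and 86 on X. The rule uses position alone, and the matching end of 2R was not analysed here. The lists carry H1 and no heterochromatin mark, so the heterochromatic state of the ends was taken from the given borders and not checked in these embryos.

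H1 was measured by chromatin immunoprecipitation and sequencing in whole wild-type embryos of the Oregon-R strain, aged 14 to 16 h. The series holds 4 immunoprecipitated samples, called replicates 1 to 4, and 4 input samples, which were not analysed here. Each replicate has its own list of H1-enriched regions, and 1 further list combines the replicates. A whole embryo mixes many cell types, so a region can come from some of them and a lower share of cells cannot be told apart from less H1 per cell. Whether the replicates are separate collections of embryos cannot be read from the labels, and p-values then measure only the spread between these samples, which may be technical. No read counts were used, and the sequencing depth behind each list is unknown.

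Linker histone H1 binds the nucleosome where DNA enters and leaves it and helps pack chromatin more tightly. Pericentric heterochromatin surrounds the centromeres, is rich in transposons and satellite repeats, carries histone H3 methylated by Su(var)3-9 and its relatives, and is bound by HP1. In Drosophila, H1 interacts with Su(var)3-9 and is needed for silencing of pericentric transposons and for the normal chromocentre of polytene nuclei. The assembled arms reach only into the outer, less repetitive portion of this heterochromatin, and reads from repeats are harder to place there. The sources used here do not give the authors' handling of reads with several matches, and its part in the results was not tested.

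The ends held more H1-enriched regions than their length alone would give, and nearly the same share of every replicate list. They span 3.58 Mb, which is 2.56% of the 139.7 Mb of sequence in the lists. Replicate 1 had 99 of 2820 regions there, replicate 2 had 76 of 2185, replicate 3 had 101 of 2886 and replicate 4 had 121 of 3410. As shares these are 3.51%, 3.48%, 3.50% and 3.55%, a mean of 3.51% ± 0.03 (SD, n = 4), and the combined list had 3.41%. The lists differ in length, while the share of each list that lies in the ends varied little. Summed over the arms, regions covered 4.65%, 3.47%, 4.78% and 5.98% of the bases of the ends in replicates 1 to 4. The mean was 4.72% ± 1.03 (SD, n = 4) in the ends, 2.40% ± 0.62 in the 1 Mb of euchromatin next to each border and 3.45% ± 0.61 in the rest of the arms. These sums weight each arm by its length, and 3L supplies 1.64 of the 3.58 Mb of the ends. The arms differed in the order of their zones, and the 3R end was covered less than the sequence as a whole. It was covered to 2.07%, 1.66%, 0.339% and 3.79% in replicates 1 to 4, against 3.35%, 2.53%, 3.40% and 4.10% of all sequences. In the combined list, summed over the arms, the ends were covered to 30.1%, the 1 Mb next to each border to 18.7% and the rest of the arms to 22.4%. The combined list covers several times more sequence than any replicate list, and the sources used here do not say how it was built, so it is reported as 1 value with no error.

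For each arm, the end was taken as up to 1 Mb past the border and compared with the flank, the 1 Mb on the euchromatic side. The 3R end measures 400 kb and the X end 522.827 kb, so their windows are shorter. Averaged over the arms with equal weight, regions covered 4.14%, 2.82%, 3.66% and 4.52% of the ends in replicates 1 to 4, and 2.48%, 1.81%, 2.08% and 3.24% of the flanks. The end was higher than the flank in 4 of 4 replicates, although the lowest end value lies below the highest flank value. The mean difference was 1.38 ± 0.30 percentage points (SD, n = 4), a ratio of the means of 1.58. A permutation test that flips the sign of each replicate's difference, exact and two-sided, gave p = 0.13 (rounded from 2 of 16 sign patterns), the smallest value that 4 replicates allow, and 0.26 after Benjamini-Hochberg adjustment over the 25 border comparisons. No border comparison could therefore pass 0.05, and each is given by its size, its spread and the number of replicates that share its direction. The experiment numbers in the labels fall into a low and a high pair, and the difference was 1.33 percentage points in replicates 1 and 2 and 1.43 in replicates 3 and 4.

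The mean contrast across the border was 2.51 percentage points on 2L, above the means of the other arms with the borders as given. With the borders as given, the contrast of 3L in replicate 2 and that of X in replicate 3 nevertheless exceeded that of 2L. With the border 200 kb towards the centromere the mean contrast was 1.70 on 2L, 1.92 on 3L and 1.94 on X. Regions covered 4.68%, 2.55%, 4.51% and 5.15% of the 2L end in replicates 1 to 4, against 1.04%, 1.60%, 1.48% and 2.73% of its flank. The end exceeded the flank within 4 of 4 replicates, and the highest flank value, in replicate 4, lies above the end value of replicate 2. The difference was 2.51 ± 1.15 percentage points (SD, n = 4), a ratio of 2.47, with an exact permutation p of 0.13 and an adjusted p of 0.26. The combined list covered 29.1% of the end and 16.9% of the flank.

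On 3L the flank itself was well covered, and the contrast was smaller. Regions covered 5.98%, 4.32%, 4.61% and 5.98% of the first 1 Mb past the border, against 4.15%, 1.91%, 3.86% and 5.01% of the flank. The end was higher in 4 of 4 replicates, by 1.49 ± 0.77 percentage points (SD, n = 4), a ratio of 1.40. The exact permutation p was again 0.13, adjusted to 0.26. Placing the 3L border 200 kb further into euchromatin left 0.789 percentage points. In the combined list the end was covered to 31.3% and the flank to 25.9%.

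On X the end was higher in 4 of 4 replicates, but replicate 3 set much of the size. Regions covered 3.86%, 2.76%, 5.18% and 3.16% of the X end and 3.05%, 1.88%, 1.79% and 2.76% of the flank. The difference was 1.37 ± 1.36 percentage points (SD, n = 4), a ratio of 1.58, with an exact permutation p of 0.13 and an adjusted p of 0.26. Without replicate 3 it was 0.695 percentage points, and with the border 200 kb further into euchromatin it was 0.0826. The combined list covered 29.1% of the end and 18.7% of the flank.

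On 3R no contrast was seen beyond the replicate spread. Regions covered 2.07%, 1.66%, 0.339% and 3.79% of the 3R end in replicates 1 to 4, against 1.70%, 1.88%, 1.18% and 2.45% of the flank. The end was higher in 2 of 4 replicates and lower in the others, a difference of 0.16 ± 0.93 percentage points (SD, n = 4) with an exact permutation p of 0.75 and an adjusted p of 0.852. The 3R end is the shortest, with 5, 4, 1 and 9 regions in replicates 1 to 4, so each of these shares rests on few regions. The combined list gave 16.4% for the end and 13.1% for the flank. The border contrast of 2L exceeded that of 3R in 4 of 4 replicates, by 2.35 ± 1.44 percentage points (SD, n = 4). Its exact permutation p was 0.13, adjusted to 0.45 over the 6 pairs of arms, and the other 5 pairs differed in sign between replicates.

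The approach to the border was followed in 200 kb bins. On 2L the combined list covered 12.5%, 16.9%, 10.4%, 17.2% and 27.8% of the bins from 1 Mb outside up to the border, and 34.2%, 33.8%, 27.2%, 25.2% and 24.9% of the bins past it. In that list coverage on 2L was thus higher in the last 200 kb before the given border than further out, and highest in the 400 kb just inside it. The replicate lists shared this course only in part. From the fourth to the last flank bin, coverage went from 2.22% to 1.34% in replicate 1 and from 3.05% to 1.40% in replicate 3, and from 0.812% to 3.25% in replicate 2 and from 3.16% to 5.62% in replicate 4. Replicates 1, 2 and 4 were highest within the first 400 kb past the border, at 7.57%, 4.33% and 6.20%. Replicate 3 was highest between 400 and 600 kb past the border, at 8.25%. On 3L the bins before the border read 35.2%, 16.6%, 17.8%, 44.0% and 15.9%, and those past it 32.8%, 19.4%, 33.4%, 34.9% and 36.0%. The fourth 3L flank bin, 3L 22500001-22700000, was covered to 7.28% ± 3.24 in the replicates (SD, n = 4), a higher mean than in any of the 5 bins of the first 1 Mb past the border, which ran from 2.65% ± 1.81 to 6.86% ± 1.69. On X the bins before the border gave 29.3%, 16.1%, 23.1%, 17.6% and 7.30%, and the 2 full bins past it 19.8% and 39.4%. In that list the last X bin before the border was the least covered of these X bins, and the peak lay between 200 and 400 kb past the border. On 3R the bins running towards the centromere gave 22.9%, 5.73%, 14.8%, 3.78% and 18.6% before the border and 20.7% and 12.03% past it.

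In the replicate lists, the first bin past the border minus the last bin before it was positive in 4 of 4 replicates on 3L, at 2.68 ± 2.17 percentage points (SD, n = 4). It was positive in 3 of 4 on 2L, at 1.51 ± 1.74, and in 2 of 4 on both X, at 1.57 ± 3.25, and 3R, at 0.17 ± 1.00. With 100 kb bins the step was 1.20 ± 2.18 on 3L, positive in 3 of 4 replicates, and 2.60 ± 4.48 on 2L, positive in 2 of 4. It was 1.87 ± 1.83 on 3R, positive in 3 of 4, and 1.18 ± 4.28 on X, positive in 2 of 4. No arm thus showed a step at the border that exceeded the replicate spread with both bin widths.

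**Figure D1:**
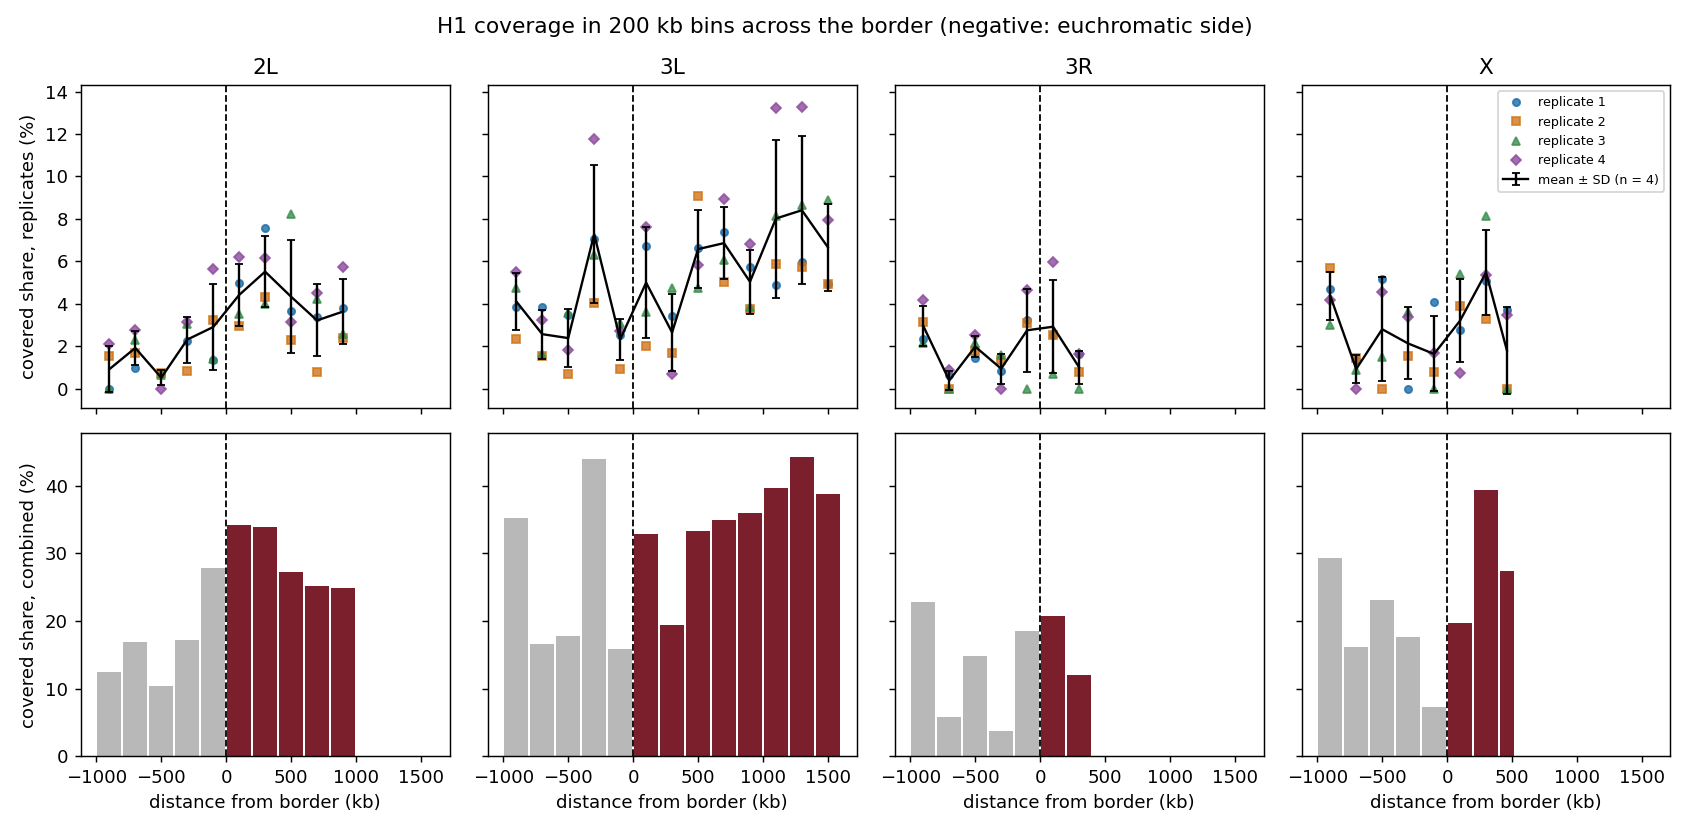
H1 coverage in 200 kb bins (% of bases) against distance from the border (kb, positive towards the centromere) for 2L, 3L, 3R and X, with each replicate list, their mean and the combined list, leaving out pieces shorter than 100 kb. In the combined list 2L increases from 17.2% to 27.8% before the border and 34.2% after it, 3L is uneven on both sides, and 3R does not exceed 22.9%.

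In the replicate lists, the larger coverage of the ends came with more regions, not with clearly wider ones. Averaged over the arms, the ends held 25.1, 17.3, 22.5 and 27.1 regions per Mb in replicates 1 to 4, and the flanks 15, 12, 13.25 and 19. The end was higher in 4 of 4 replicates, by 8.19 ± 2.08 regions per Mb (SD, n = 4), with an exact permutation p of 0.13 and an adjusted p of 0.26. By arm the difference was 13.5 ± 6.35 on 2L, 9.25 ± 4.86 on 3L and 9.64 ± 9.28 on X, each positive in 4 of 4 replicates. On X it was 5.04 without replicate 3. On 3R it was 0.375 ± 5.54, positive in 2 of 4 replicates. The combined list held 151 regions per Mb in the 2L end against 100 in its flank, 157 against 134 on 3L, 95 against 81 on 3R and 164 against 110 on X. All 4 arms thus had more combined regions per Mb past the border, 3R included.

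The median width of a replicate region was 1541, 1529, 1490 and 1565 bp in the ends of replicates 1 to 4, averaged over the arms, and 1501, 1470, 1464 and 1576 bp in the flanks. The difference was 28.7 ± 29.4 bp (SD, n = 4), positive in 3 of 4 replicates, with an exact permutation p of 0.25 and an adjusted p of 0.329. With flanks shortened to the length of the end it was -28.5 bp, so the replicate lists give no fixed direction for width. By arm the difference ran from 125 ± 105 bp on 2L, where 3 of 4 replicates were wider in the end, to -71 ± 135 bp on X, where 1 of 4 was. The narrowest region in a replicate list measured 1301 bp and in the combined list 1001 bp. The medians therefore lie close to the smallest width in the lists, which limits how far they can move. In the combined list the median width was 1695 bp in the 2L end and 1494 bp in its flank. It was 1610 and 1621.5 bp on 3L, 1587 and 1403 bp on 3R, and 1610 and 1480.5 bp on X. Averaged over the arms it was 1625.5 bp in the ends and 1499.75 bp in the flanks, so that list had wider regions in the ends except on 3L. Combined regions of 3 kb or more made up 12.3% of those in the ends up to 1 Mb past the border and 6.82% of those in the flanks.

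Spacing is the gap from the end of one region to the start of the next, and its median over a window was used where at least 3 gaps were present. Replicate 3 had 1 region in the 3R end and gave no spacing there, so the mean was taken over 2L, 3L and X. That mean was 26.9, 32.3, 21.1 and 20.7 kb in the ends of replicates 1 to 4 and 41.0, 47.3, 39.5 and 20.1 kb in the flanks. Regions lay closer together in the ends in 3 of 4 replicates, by a mean change of -11.7 ± 8.41 kb (SD, n = 4), with an exact permutation p of 0.25 and an adjusted p of 0.329. On 3L the end had the smaller spacing in 4 of 4 replicates, at 16.1, 18.4, 29.1 and 12.9 kb against 29.2, 33.2, 32.0 and 17.2 kb. On 2L it was smaller in 3 of 4, at 32.2 ± 14.8 against 50.5 ± 31.1 kb. On X 3 of 4 replicates had the wider spacing in the end, and the mean change of -8.10 ± 27.1 kb became 5.31 kb without replicate 3, whose X flank had a median gap of 62.5 kb. On 3R the 3 replicates with a value had smaller median gaps in the end, by -8.73, -53.1 and -7.40 kb in replicates 1, 2 and 4. The mean was -23.1 ± 26.0 kb (SD, n = 3). These medians rest on only 5, 4 and 9 regions in the end. A 400 kb end also cannot hold gaps as long as a 1 Mb flank can, and the part of this was not tested. Regions per Mb in those replicates were 12.5, 10 and 22.5 in the 3R end and 11, 12 and 15 in its flank. The median gap of the combined list was 1.93 kb in the 2L end against 2.65 kb in its flank, 2.14 against 3.32 kb on 3L, 3.15 against 3.18 kb on 3R and 1.84 against 3.45 kb on X.

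The authors' score of a region has no stated scale, and it was used here only within a list. Its median, averaged over the arms, was 0.614, 0.718, 0.603 and 0.562 in the ends of replicates 1 to 4 and 0.598, 0.692, 0.598 and 0.562 in the flanks. The log2 ratio of end to flank was 0.03 ± 0.03 (SD, n = 4), above 0 in 4 of 4 replicates, with an exact permutation p of 0.13 and an adjusted p of 0.26. It took the opposite sign under 3 of the other settings tried. By arm the log2 ratio was 0.10 ± 0.08 on 2L, 0.08 ± 0.06 on 3L, 0.02 ± 0.13 on 3R and -0.08 ± 0.08 on X. The mean score contrast thus differed in sign between arms. The medians cover only regions that were called, and how far they can move is unknown. The size of the score contrast can therefore not be set against that of the number of regions.

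**Figure D2:**
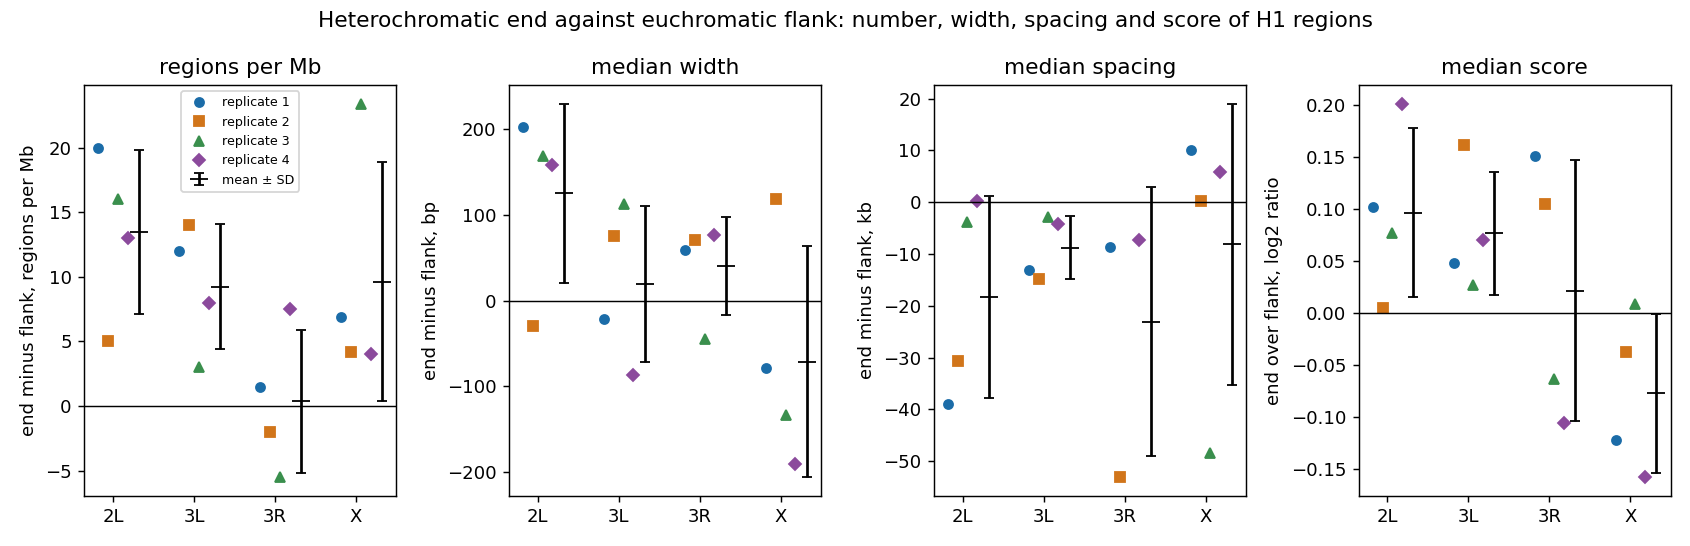
End against flank for each arm, in panels for regions per Mb, median width (bp), median spacing (kb) and median score (log2 ratio). Each coloured point is 1 replicate list, and the black mark with bars is the mean ± SD over the replicates of that arm. The number of regions lies above 0 in 4 of 4 replicates on 2L, 3L and X, while width falls on both sides of 0 on each arm and score does so on 3R and X.

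Against the rest of the same arm, outside the flank, the ends of 3L and X were covered more, that of 3R less, and that of 2L differed by less than the replicate spread. The whole 3L end was covered to 5.56%, 4.72%, 5.93% and 7.95% in replicates 1 to 4, against 3.25%, 2.43%, 3.48% and 3.80% of the 3L body. The 2 sets do not overlap, and the difference was 2.80 ± 0.91 percentage points (SD, n = 4), a ratio of 1.86. The X end exceeded the X body, at 1.93%, 1.36%, 1.68% and 1.99%, in 4 of 4 replicates as well, by 2.00 ± 1.05 percentage points and a ratio of 2.15. These sets do not overlap either, and the X body was the least covered of the 4 bodies. On 3R the order was the opposite, with the end below a body covered to 4.40%, 3.43%, 4.31% and 5.26% in 4 of 4 replicates, a difference of -2.39 ± 1.12 percentage points and a ratio of 0.451. On 2L the end, at 4.62%, 2.52%, 4.46% and 5.09%, stood against a body at 4.19%, 3.22%, 4.38% and 5.23%, a difference of -0.08 ± 0.47 percentage points with 2 of 4 replicates on either side. The exact permutation p was 0.13 on 3L, X and 3R, adjusted to 0.156 over 5 comparisons, and 0.75 on 2L. Averaged over the arms the end exceeded the body by 0.58 ± 0.26 percentage points in 4 of 4 replicates, with an exact permutation p of 0.13, adjusted to 0.156.

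On 2L the flank, not the end, differed from the body by more than the replicate spread. The 2L flank was covered less than the 2L body in 4 of 4 replicates, by a mean difference of -2.54 ± 0.67 percentage points (SD, n = 4), and the 3R flank less than the 3R body in 4 of 4, by -2.55 ± 0.69. On X the flank was above the body in 4 of 4 replicates, by 0.63 ± 0.43, and on 3L in 3 of 4, by 0.49 ± 0.76. No test was made of these differences, which were computed after the border results were seen. Among 200 kb windows of the 2L body, the mean of the replicates ran from 0% to 15.9%, with a median of 3.24%. The flank was not set against these windows. By mean coverage, the border contrast of 2L is one between a flank below the body and an end close to it.

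**Figure D3:**
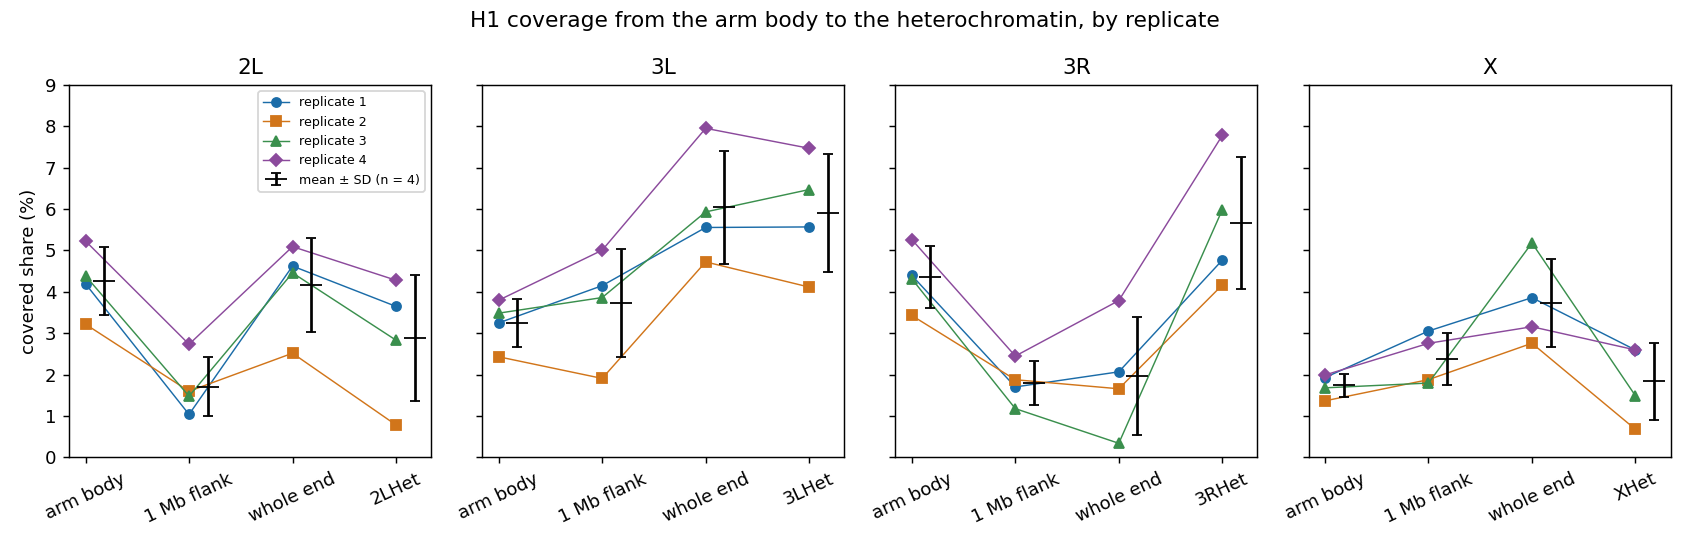
Covered share (% of bases) in the body, the flank, the whole end and the heterochromatin scaffold of each arm; each coloured line is 1 replicate list and the black marks are the mean ± SD (n = 4). The 3L and X ends sit above their bodies in 4 of 4 replicates, the 3R end sits below its body in 4 of 4, and the 2L and 3R flanks sit below theirs.

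Release 5 also holds scaffolds of heterochromatin that could be given to an arm but not joined to it, 2LHet, 3LHet, 3RHet and XHet. They give a second heterochromatic sequence to set beside each end. The 2L end was covered more than 2LHet in 4 of 4 replicates, by 1.29 ± 0.46 percentage points (SD, n = 4) over a scaffold mean of 2.89% ± 1.52. The X end was covered more than XHet in 4 of 4, by 1.90 ± 1.35 over 1.84% ± 0.93. The 3L end and 3LHet did not differ beyond the spread, at 6.04% ± 1.37 and 5.91% ± 1.42, a difference of 0.13 ± 0.52 with 2 of 4 replicates higher. The 3R end was covered less than 3RHet, which reached 5.67% ± 1.59, in 4 of 4 replicates, by -3.71 ± 1.45 percentage points. The exact permutation p was 0.13 for 2L, X and 3R, adjusted to 0.208 over 5 comparisons, and 0.75 for 3L. Averaged over the arms the difference was -0.10 ± 0.42 percentage points with an exact permutation p of 0.625, adjusted to 0.75. The low coverage of the 3R end was thus not shared by the 3R scaffold. The scaffolds of 2L and X measure 368.872 and 204.112 kb, so their shares rest on short sequences.

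Pooled over the arms, a region in the ends was found again by another replicate more often than a region in the flanks. The 3L end supplied 54, 48, 56 and 72 of the end regions in replicates 1 to 4. Recurrence was not computed by arm, so these values do not show that each end shares it. In the ends 48 of 99, 39 of 76, 53 of 101 and 56 of 121 regions of replicates 1 to 4 overlapped a region of another replicate by at least 1 bp, which is 48.5%, 51.3%, 52.5% and 46.3%. In the flanks the shares were 23.3%, 39.6%, 32.1% and 40.8%, and in the bodies 44.2%, 46.0%, 43.5% and 41.2%. The end values lie above those of both other zones and do not overlap them. The difference was 15.7 ± 8.78 percentage points (SD, n = 4) from the flanks and 5.92 ± 2.08 from the bodies, each positive in 4 of 4 replicates with an exact permutation p of 0.13, adjusted to 0.13 over 2 comparisons. From the flanks it was 5.97 without replicate 1 and 8.22 without replicate 3, and from the bodies 3.91 without replicate 3. Recurrence also moves with coverage, since a list that covers more of a zone overlaps another list there more often, and the part of coverage in this difference was not tested.

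Among the 552 combined regions, replicate support was close to that of the whole list. Of these, 245 regions, 44.4%, were overlapped by at least 1 replicate list, against 44.2% of all 16190 regions. At least 3 lists overlapped 21 of them, 3.80%, against 3.56% of all regions, and 4 lists overlapped 7, 1.27%, against 0.729%. The share with any support was 50.2% on 3L, with 139 regions, and was lower on 2L, with 59 regions or 39.1%, on 3R, with 15 or 39.5%, and on X, with 32 or 37.2%. Combined regions overlapped 97.0%, 81.6%, 83.2% and 96.7% of the regions that replicates 1 to 4 placed in the ends. Those of replicates 2 and 3 were thus overlapped less often, as they were over all sequences.

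Wide regions had more support. The median width in the ends was 1375 bp for the 307 regions with no replicate overlap, 1839 bp for 155 regions with 1, 2924 bp for 69 with 2, 3658.5 bp for 14 with 3 and 4775 bp for 7 with 4. Over the whole combined list the corresponding medians were 1310, 1804, 2552, 3630 and 4628 bp. A wider region has more bases that a replicate region can touch, so width and support are not separate measures. Regions of 3 kb or more made up 12.6% of the 2L end, 17.7% of the 3L end, 9.30% of the X end and 2.63% of the 3R end, which is 1 of 38. Across the ends this was 77 regions or 13.9%, against 6.82% in the flanks, 11.9% in the bodies and 11.6% of all combined regions. Gaps under 2 kb made up 50.0% of the gaps in the ends, 40.4% in the flanks and 50.3% in the bodies, and 32.4% in the 3R end. Summed over the arms, both shares in the ends lay nearer those of the bodies than those of the flanks. By arm this did not hold throughout. The share of wide regions was 17.7%, 12.7% and 10.9% in the end, flank and body of 3L, and the share of short gaps was 52.9%, 41.3% and 39.2% in those of X.

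**Figure D4:**
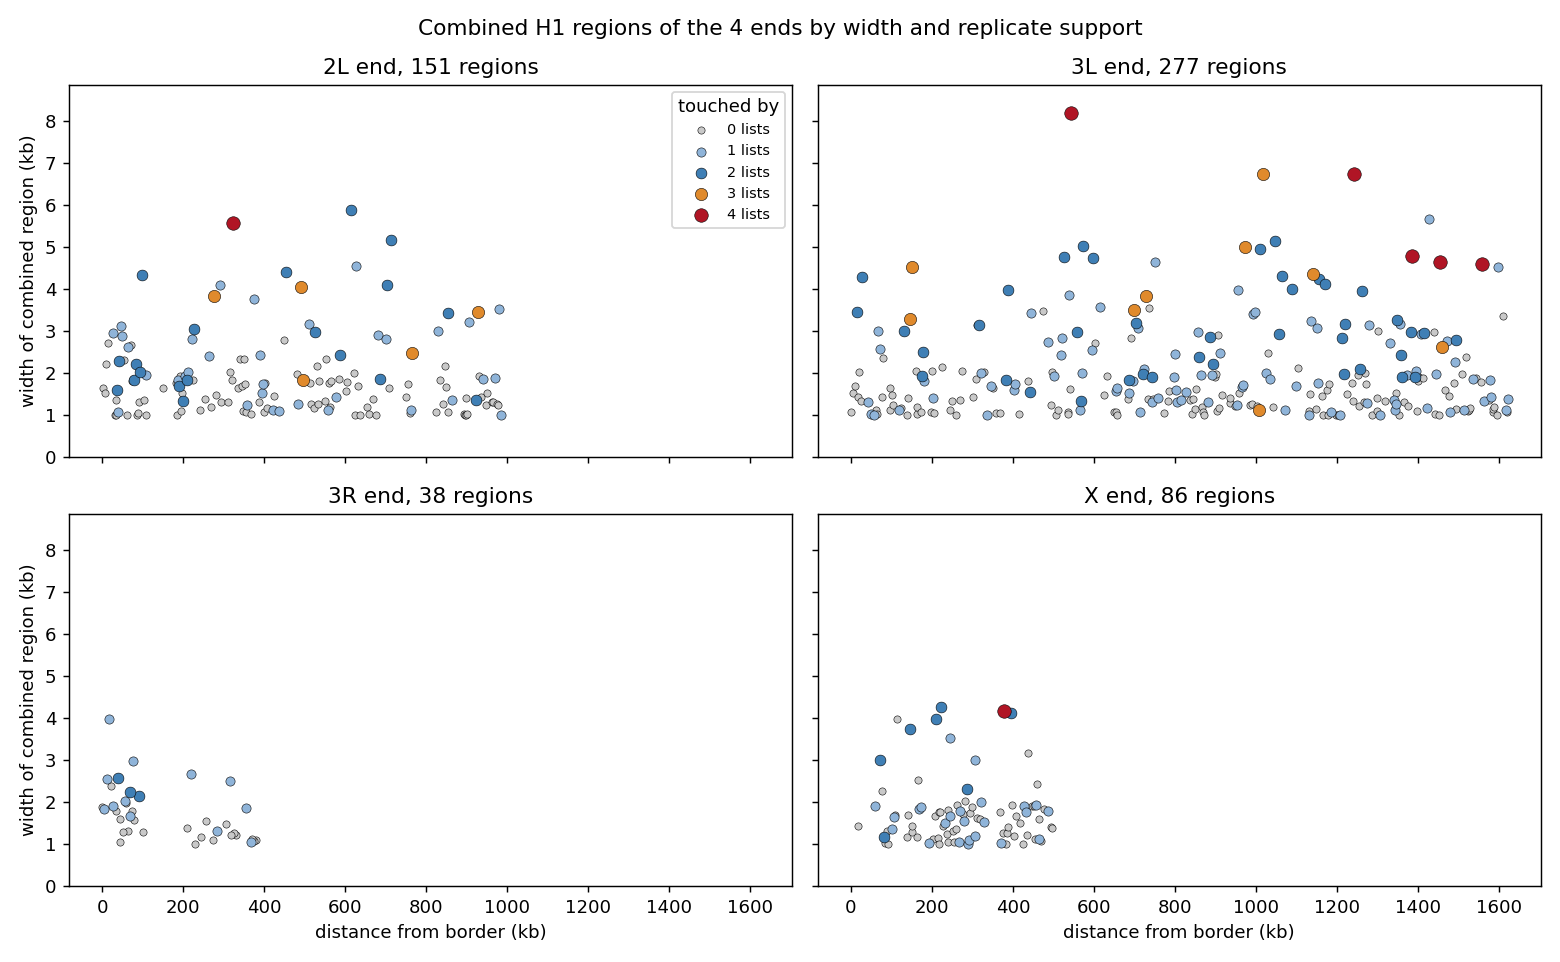
Width (kb) of each combined region in the 4 ends against its distance from the border (kb), coloured by the number of replicate lists that overlap it. The 5 regions of 3L with support from 4 lists include the widest, 8192 bp long, and 4 of these 5 lie more than 1 Mb past the border.

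The 7 regions supported by 4 replicate lists lay on 3L, 2L and X. The widest was 3L 23444491-23452682, 8192 bp long and 544 kb past the border, with an authors' score of 0.503. Replicates 1, 2 and 3 each placed 2 regions inside it and replicate 4 placed 3, covering 4345, 2971, 3060 and 4948 bp of it. One of the replicate 1 regions, 3L 23450467-23452066, had counterparts at 23450545-23452184 in replicate 2, 23450816-23452159 in replicate 3 and 23450207-23452186 in replicate 4. The right-hand side of this domain was thus placed at nearly the same position by 4 lists. On the left-hand side replicates 1, 2 and 3 placed overlapping regions, at 23445369-23448113, 23446169-23447499 and 23445139-23446854. Replicate 4 split that side into 23444484-23445815 and 23447711-23449353.

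The other 4 regions of 3L lay deep in the end, between 1242 and 1558 kb past the border. They were 24141883-24148616, which is 6734 bp long, 24285874-24290648 with 4775 bp, 24353783-24358426 with 4644 bp and 24458125-24462713 with 4589 bp. The first was overlapped by 1314, 1539, 1420 and 1786 bp in replicates 1 to 4, with replicate 4 at 24146352-24148137 and replicate 2 at 24142750-24144288. These 2 regions do not meet, so support from 4 lists does not mean that the lists share a common base there. The last, at 24458125-24462713, was overlapped by 3459, 1341, 3209 and 3415 bp, and its score of 0.286 was the lowest of the 7. Regions of replicates 1, 3 and 4 cover most of it, and that of replicate 2 runs past its right edge.

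On 2L the supported region was 22322730-22328289, 5560 bp long and 323 kb past the border, overlapped by 1451, 1845, 1513 and 3630 bp. The replicate regions of 1, 2 and 4 start close to one another, at 22323109, 22323033 and 22323312, and that of replicate 3 starts at 22324220. On X it was 22277896-22282060, 4165 bp long and 378 kb past the border, overlapped by 1958, 1800, 2661 and 1311 bp, with the highest score of the 7 at 0.518. It lies in the X bin between 200 and 400 kb past the border that had the highest coverage of that arm's bins. No region of the 3R end was overlapped by more than 2 lists.

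The widest regions of the other ends had less support. On 2L it was 22614841-22620719 with 5879 bp and overlaps from 2 lists, on X 22123015-22127282 with 4268 bp and 2 lists, and on 3R 380082-384046 with 3965 bp and 1 list. The region with the highest score in each end had no replicate overlap, and those of 2L, 3L and 3R were narrower than the median of their end. They were 3L 24098728-24099728 with 1001 bp and a score of 2.05, 2L 22659548-22660582 with 1035 bp and 1.34, X 22377150-22378983 with 1834 bp and 0.673, and 3R 80070-81295 with 1226 bp and 0.484. Of the 7 regions supported by 4 lists, 2 had scores below the median of the ends, 0.406.

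The first combined region past the border lay 1.77 kb inside on 2L, at 22001770-22003408, and 1.68 kb inside on 3L, at 22901685-22902756. On X it lay 18.7 kb inside, at 21918692-21920116, and was followed by the longest gap of that end, 39.2 kb from 21920117 to 21959303. On 3R the region 398530-400411 straddles the border. None of these 4 was overlapped by a replicate list. The longest gap without a combined region was 106.7 kb on 3R, from 191165 to 297903, in an end of 400 kb. It was 56.5 kb on 2L, from 22767023 to 22823523, and 26.2 kb on 3L, from 23347661 to 23373885. The gaps on 2L, 3L and 3R held no replicate region, and that on X held 1. From the last combined region to the end of the assembled sequence on the centromere side there were 25.8 kb on 2L, 21.1 kb on 3L, 19.8 kb on 3R and 25.2 kb on X.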

How the data were processed

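H1-enriched regions were read from 4 replicate lists and 1 combined list in the coordinates of FlyBase release 5, per the file headers. The submitters' processing notes name Bowtie 0.12.7 as the aligner. The sources used here do not give the region caller, its thresholds, a filter on width, the scale of the score or the making of the combined list. The score column was deposited by the authors with no unit. Read depth is unknown, and no input values were used.

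For each list and window, the covered share, regions per Mb, median width, median spacing and median score were computed with Python 3.11.15, numpy 2.4.6, pandas 2.3.3 and scipy 1.17.1, and figures were drawn with matplotlib 3.10.9. A region belongs to the window that holds its midpoint for counts, widths, spacing and scores, and bases were clipped to the window for coverage. Regions overlap when they share at least 1 bp. Windows were compared within each replicate by flipping the signs of the 4 differences in a two-sided exact permutation test, with Benjamini-Hochberg adjustment over 25 border, 5 body, 5 scaffold, 6 between-arm and 2 recurrence comparisons. The calculation was checked on simulated lists with regions of a fixed width on evenly spaced slots. The lists used here differ from these in width and spacing, so the check does not show how the procedure behaves on them. No region was identical between replicates.

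Members, windows and lists were chosen with earlier results of these data known. The regions described singly are those overlapped by 4 lists and, per end, the widest, the highest in score and the nearest to the border. No annotation or genome of this release was used, so regions carry no gene names or sequences. Alternatives were a shifted border, other window lengths, higher scores, equal list lengths, merged gaps, a wider overlap, smaller bins, fewer replicates and the combined list. Chosen after seeing the data were the support by pairs of replicates, the body windows, the inner 3L end, the flank against the body and the scores above 1.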

Additional observations from a re-analysis of the deposited data

Results flagged for a closer look

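Of 96 sets of 4 replicate values examined, 11 held a value far from the other 3, where chance gives about 1 in 20, or 4.8. The sets are not independent, since an end, its flank and their difference share values and the measures share regions. The 11 can therefore not be read as an excess over 4.8. Replicate 3 stood apart on X, where the end exceeded the flank by 3.39 percentage points of coverage and by 23.4 regions per Mb, the highest of the 4. In the same list the X flank had a median spacing of 62.5 kb, the highest, and the end-minus-flank spacing was -48.3 kb, the lowest. On 3R, replicate 3 had the lowest median width in the end, 1357 bp from 1 region, the lowest in the flank, 1401.5 bp, and the lowest difference, -44.5 bp. Replicate 2 had the highest median width in the X end, 1560 bp, the highest median score in the 3L end, 0.710, and the highest in the 3R flank, 0.668. Replicate 4 had the largest excess of the whole 3L end over the 3L body, 4.15 percentage points.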

How the results depend on the processing

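Of 538 alternative values, 489 kept the direction of the reported value, and a count its size within 1.5 times. Another 40 had the opposite sign and 9 moved by more. Some of these values could not change direction. Where every replicate shared a sign, as for coverage on 2L, 3L and X, leaving replicates out could not reverse a border difference. A flank as long as the end is the main flank on 2L and 3L. The whole end is the main window on 3R and X. For coverage across the border, 69 of 71 kept the sign, and both others were on 3R, at -0.784 percentage points with the border 200 kb towards the centromere and within -0.230 to 0.496 with a replicate left out. Regions per Mb on 3R were -4.75 with that border, -0.25 in replicates 1 and 2 alone and -2 to 2.33 with a replicate left out. Median width on 3L was -9.5 bp with the border 200 kb towards euchromatin, -11.5 bp in the combined list and -10.8 to 55.7 bp with a replicate left out. With a flank as long as the end, width was -79.9 bp on 3R and -28.5 bp in the mean, and on X it was 129.5 bp in the combined list and 20 bp in replicates 1 and 2 alone. Median spacing on X was 0.518 kb among regions at or above the median score, 5.10 kb in replicates 1 and 2 alone and -14.1 to 5.31 kb with a replicate left out. The log2 score ratio on 2L was -0.0104 with the same number of regions per list. On 3R it was -0.0401 with the border towards euchromatin, -0.0299 with the matched flank, -0.0389 at or above the median score, -0.0848 in replicates 3 and 4 alone, -0.0302 with equal numbers and -0.0215 to 0.0642 with a replicate left out. Its mean was -0.0072 with the matched flank, -0.0176 at or above the median score and -0.0033 with equal numbers.

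Between arms, 3L minus X was -5.01 percentage points in the combined list, -1.03 in replicates 3 and 4 alone and -0.346 to 1.04 with a replicate left out. The 2L end minus its body was 2.63 in the combined list, 0.270 at or above the median score, 0.170 with equal numbers and -0.254 to 0.123 with a replicate left out. The 3L end minus 3LHet was -0.0289 in replicates 3 and 4 alone and -0.0236 to 0.359 with a replicate left out, and the mean over the scaffolds was 3.18 in the combined list, 0.18 in replicates 1 and 2 alone and -0.289 to 0.0480 with a replicate left out. With 100 kb bins the step at the 3R border was 1.87 percentage points, and on 2L, 3L and X it was 2.60, 1.20 and 1.18. Of the combined regions in the ends, 162 were overlapped by at least 1 list at or above the median score. This was 29.3%, against 26.1% of all combined regions. Replicates 2 and 3 alone overlapped 130, 23.6% against 23.0%. At an overlap of at least 50%, 0 were overlapped by every list used, against 0.0432% of all combined regions. At or above the median score it was 1, 0.181% against 0.0741%. For replicates 1 and 4 it was 31, 5.62% against 4.56%, and for replicates 2 and 3 it was 23, 4.17% against 3.05%. With a replicate left out it was 8 to 13, where fewer lists have to agree by construction. Those shares were 1.45% to 2.36%, against 1.20% to 1.70%. The cause of the other changes was not tested.

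Spacing on 3R had too few gaps at or above the median score and with the border towards the centromere. Every test across zones is paired within a replicate list. Between immunoprecipitated and input samples, which share replicate numbers, no test was made: no paired analysis was possible because no input values are among the lists used here. With 4 replicates no exact test can go below p = 0.13, depth is unknown, and shares in the 3R end rest on few regions.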

Other observations

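The 3L end reaches further past its border than the others, and its inner stretch was covered to 4.90%, 5.36%, 7.98% and 11.01% in replicates 1 to 4 beyond 1 Mb, against 5.98%, 4.32%, 4.61% and 5.98% within it. The inner stretch was higher in 3 of 4 replicates, by 2.09 ± 2.67 percentage points (SD, n = 4), and lower by 1.07 in replicate 1. The combined list covered 39.6% of it with 120 regions and 31.3% of the first 1 Mb with 157. No test was made of this difference, which is within the spread between replicates.

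Set against 200 kb windows of the arm bodies, the ends of 3L and X stood high and that of 3R low. The ends are longer than these windows, at 1.64 Mb on 3L, 0.523 Mb on X, 1.01 Mb on 2L and 0.4 Mb on 3R. An end value is thus averaged over more sequence than a window value. The 2L end, at 4.17%, lay above most 2L windows but below the 2L body as a whole, at 4.26%. The mean of the replicates was below that of the end in 96 of 109 body windows on 3L, in 94 of 104 on X, in 61 of 105 on 2L and in 31 of 132 on 3R. In the combined list these counts were 90, 96, 64 and 35. Densely covered windows thus occur in the bodies of 2L and 3R too, where single windows reached 15.9% and 14.4% in the mean of the replicates.

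Scores above 1 were given to 9 of the 552 combined regions in the ends, 1.63%, against 289 of 16190, 1.79%, in the whole list. No replicate list overlapped 7 of these 9, and none overlapped 251 of the 289, 86.9%. The 9 had a median width of 1038 bp, near the smallest width in that list.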
